A study of Homo sapiens with 9 samples.

Results

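The genes described here encode the cytosolic translation factors, which carry the ribosome through the start, the extension and the end of protein synthesis. They were taken as a list of 48 gene symbols by function, not by measured values, out of 58214 genes with a matched transcript. Together they hold 609 of the quantified transcripts. The measurements are RNA-seq, poly(A)-enriched per the labels, of K562 cells, an established human line grown from a chronic myelogenous leukaemia. The sample sheet spells the line K652 in its source and cell line fields and K562 in the titles. Cells were transfected with siRNA against DHX34, with siRNA against UPF1 or with a non-targeting pool (SCR, given the treatment WT in the labels), and were harvested on day 4. Each group has 3 libraries. No clone or transgene is involved in these samples, and the depletion is transient and partial. The question is how the mRNAs of the translation machinery differ when DHX34, an RNA helicase linked to nonsense-mediated decay (NMD), or UPF1, the core helicase of that pathway, is depleted.

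Translation starts when eIF2 brings the initiator tRNA to the small ribosomal subunit, helped by eIF1, eIF1A, eIF5 and the large eIF3 complex. eIF4E, eIF4G and the helicases eIF4A1 and eIF4A2 recruit the capped mRNA. The eEF1 and eEF2 factors and eIF5A drive elongation, eRF1 (ETF1) and eRF3 (GSPT1) release the chain at a stop codon, and ABCE1 splits the ribosome afterwards. NMD reads these events: a ribosome that terminates upstream of an exon junction leaves a junction complex downstream of the stop, and UPF1 together with the release factors commits such an mRNA to decay. Several translation factor genes make transcripts of this kind by alternative splicing, which the annotation marks with the NMD biotype.

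A few of these stops are shown first. Each line gives 15 bases before the stop, the stop codon in capitals and 12 bases after it, 5′ to 3′ on the spliced transcript of GENCODE 44 (GRCh38). Each belongs to a transcript whose TPM was higher in all UPF1 knockdown libraries than in any SCR library, except EIF4A1-217, shown to set the helicase pair side by side.

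EIF4A2-202: attcacaggagtcgaTAGcagcagttggtg
EIF4A2-203: aacaaatgttcgaaaTGAaatgcaaaaact
EIF4A1-208: aggcgtcatcgagagTAActggaatgagat
EIF4A1-217: caccaacgtgcgtgcTGAggtgcagaaact
EIF4B-204: caagggatttgtgcaTAAtggggcaaaagg
EEF1B2-205: aaggaaaaggccaggTAGaacatggacagc
ABCE1-204: agccttctagttaccTAGatgtcaagcagc
EIF2B4-202: ttacacaacaccgccTAAtgaagaactctc

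In EIF4A2-202 the stop lies at chr3:186788317-186788319 on the plus strand, in an exon of 107 bases at chr3:186788310-186788416 that the canonical transcript lacks, and 97 bases separate it from the last exon junction. EIF4A2-203, EIF4A2-204 and EIF4A2-207 end at another stop, chr3:186785963-186785965, 648 to 664 bases before the last junction. These 3 transcripts skip a canonical exon of 140 bases at chr3:186784962-186785101. EIF4A1-217, from the paralogue on chromosome 17, also skips an exon of 140 bases (chr17:7575119-7575258) and ends at a TGA, with 20 of the 30 bases of its window equal to those of EIF4A2-203. The stop of ABCE1-204, at chr4:145112268-145112270, follows the skipping of an exon of 97 bases. EEF1B2-205 and EEF1B2-204 end at the same stop, chr2:206160888-206160890, which in EEF1B2-204 lies in an added exon of 246 bases.

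The libraries held 73478797 to 103625443 estimated fragments, and all 48 genes passed the low-count filter. The targeted mRNAs fell where their labels say: DHX34 was 72.3, 74.0 and 74.5 CPM (read counts scaled to a common library total after TMM normalisation) in SCR and 30.1, 30.0 and 34.0 in its knockdown (log2 fold change −1.23, edgeR adjusted p = 3.33e-07). UPF1 was 252, 266 and 266 CPM in SCR and 105, 107 and 105 in its knockdown (−1.32, adjusted p = 2.41e-10). The erythroid genes GATA1 (184 to 225 TPM) and KLF1 (132 to 163 TPM) were present in every library, while the lymphoid and myeloid markers CD3E, CD2, MS4A1, CD14 and ITGAM stayed at or below 0.289 TPM. CD79A reached 0.482 TPM, and EPCAM was at 68.1 to 80.4 TPM. DHX34 replicate 3 stood apart from its group: its counts differed from those of its group mates with a chi-square of 24.6 and 27.3 per degree of freedom, against 6.21 to 11.1 in the other pairs. The mean fragment length the quantification used was 254 bases in SCR, 258 to 259 after DHX34 knockdown and 251 to 256 after UPF1 knockdown. No library was a copy of another.

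UPF1 knockdown raised the share of the gene's output carried by NMD-biotype transcripts in 13 of the 25 translation factor genes that could be tested, and lowered it in 1 (limma on arcsine square-root shares, adjusted p of at most 0.05). Of all 3875 genes tested 17.6% were called, 16.7% up and 0.929% down, and of the 606 genes averaging 100 TPM or more 36.1% rose, so highly expressed genes as a whole were often called. The 13 span initiation, elongation, recycling and poly(A) binding: the helicases EIF4A2 and EIF4A1, the scaffold EIF4G1 and the helicase cofactor EIF4B, the eIF3 subunits EIF3E, EIF3G, EIF3H and EIF3I, the eIF2B subunit EIF2B4, the elongation factors EEF1B2 and EEF1D, the recycling ATPase ABCE1 and the poly(A)-binding protein PABPC4. In all 13, which the test picked on these same shares, the lowest UPF1 knockdown library lay above the highest SCR library. Groups that did not overlap, in either direction, were found in 18 of the 25 members and in 1474 of all 3875 genes. The gains ran from 0.348 percentage points in EIF4A1 to 14.6 in EIF4A2. Some of the 14 calls rest on transcripts whose deposited length differs from that in the annotation that gave the biotype. EIF3E-202 was deposited at 687 bases against 1732, EIF3E-215 at 841 against 1485 and EIF3I-204 at 643 against 688. PABPC4-210 was at 1212 against 2142, and EIF3F-208, of the falling gene, at 372 against 1914. Whether the quantified models hold the annotated stops was not tested. With any single library left out, 8 of the 14 calls passed every time (EIF4A2, EIF3G, EIF3I, EIF3E, PABPC4, EIF4B, EEF1B2 and EEF1D). The other six, EIF2B4, EIF3H, ABCE1, EIF4G1, EIF4A1 and the falling EIF3F, missed the threshold without at least 1 library, and the count fell to 9 without SCR replicate 1, 2 or 3 or without UPF1 replicate 3.

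**Figure D1:**
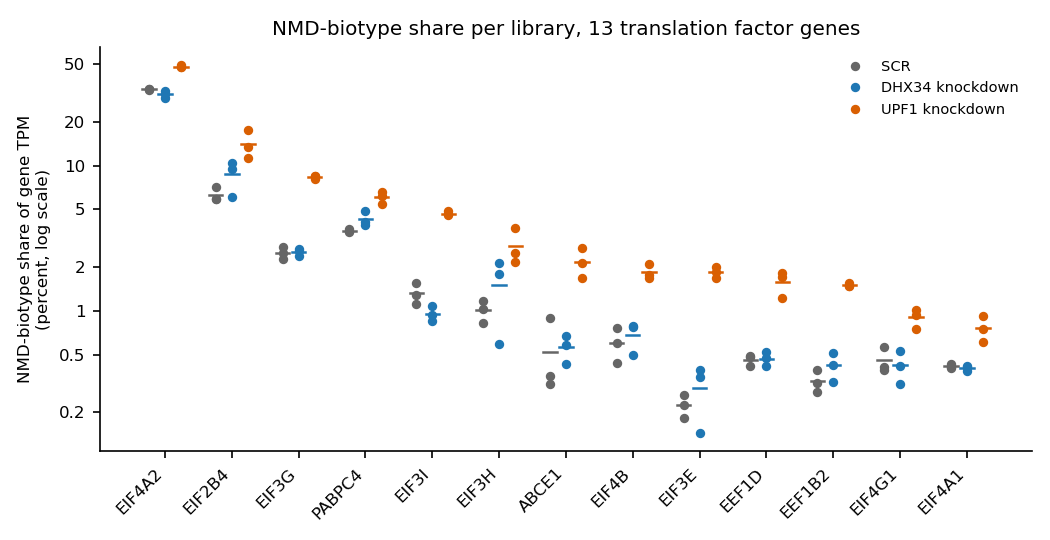
Share of each gene's TPM carried by NMD-biotype transcripts (percent, log axis) in every library, for the 13 translation factor genes whose share rose after UPF1 knockdown. Points are libraries and lines are means of 3; EIF4A2 rises from 33.6% to 48.1%, and the DHX34 knockdown mean there is 31.1%.

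EIF4A2, the second of the cap-complex helicases (ENSG00000156976, chr3:186783205-186789897), had the largest gain. NMD-biotype transcripts held 33.7%, 33.5% and 33.5% of its TPM in SCR, 29.3%, 32.9% and 31.0% after DHX34 knockdown, and 49.1%, 47.9% and 47.5% after UPF1 knockdown. The UPF1 knockdown libraries were above both other groups, and the DHX34 knockdown libraries lay below SCR without passing the test (−2.47 points, adjusted p = 0.478). The difference from SCR was 14.6 percentage points (limma, adjusted p = 0.000371) and that from the DHX34 knockdown 17.1 points (adjusted p = 0.00121).

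All 4 of its NMD-biotype transcripts contributed. EIF4A2-202, with the added exon, went from 30.5, 35.0 and 31.7 TPM in SCR to 63.0, 57.6 and 62.8 TPM after UPF1 knockdown. EIF4A2-203, with the skipped exon, went from 19.9, 20.5 and 18.7 TPM to 46.9, 51.1 and 44.7 TPM. Both transcripts were higher although their stops differ, and the DHX34 knockdown libraries (29.1 to 35.9 and 14.4 to 22.0 TPM) overlapped SCR. EIF4A2-204 was 3.06 times and EIF4A2-207 2.51 times its SCR mean. The coding transcripts summed to 88.7 ± 2.69 TPM in SCR and 87.0 ± 4.93 TPM after UPF1 knockdown (SD, n = 3 each). The NMD-biotype sum went from 64.6 ± 2.45 to 143 ± 2.19 TPM. The retained-intron sum was higher too, at 39.3 ± 2.44 TPM in SCR and 66.7 ± 1.47 TPM after UPF1 knockdown. Within the coding class EIF4A2-201 lost share, from 29.3%, 26.3% and 27.0% to 11.8%, 15.2% and 16.0% (−13.2 points, adjusted p = 0.0146), and EIF4A2-205 was 30.2 to 35.1 TPM in SCR and 41.04 to 43.8 TPM in the knockdown. Without a library the EIF4A2-201 call held in 3 of 6 cases and that of EIF4A2-203 in 2 of 6.

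**Figure D2:**
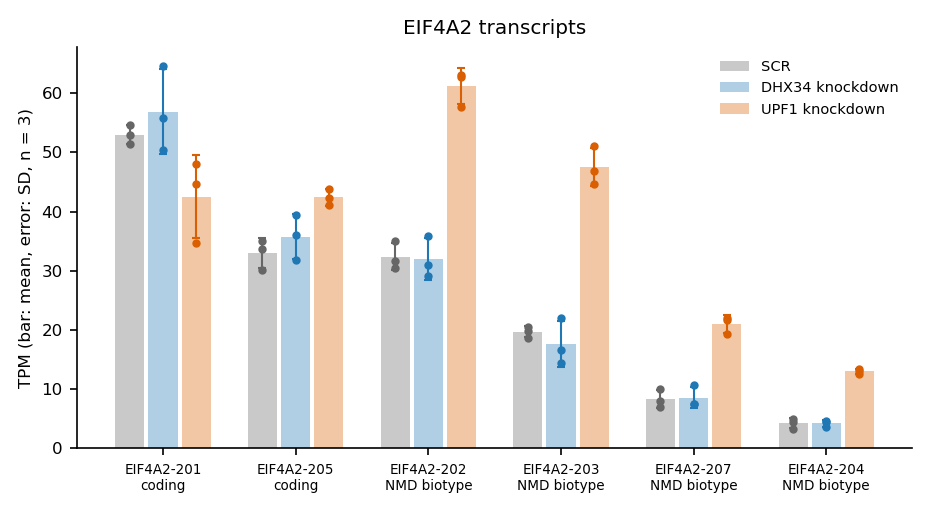
TPM of the 2 main coding and the 4 NMD-biotype transcripts of EIF4A2 by group; bars are means, error bars SD (n = 3) and points libraries. The NMD-biotype transcripts are 1.89 to 3.06 times their SCR mean after UPF1 knockdown, and the DHX34 knockdown bars are close to SCR.

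Among the eIF3 subunits, EIF3G, an RNA-binding subunit (chr19:10115014-10119918), had an NMD-biotype share of 2.26%, 2.78% and 2.51% in SCR and 8.48%, 8.44% and 8.07% after UPF1 knockdown (adjusted p = 0.000674). EIF3G-205 was 3.10 to 4.35 TPM in SCR and 18.7 to 22.2 TPM in the knockdown. Coding EIF3G stayed at 280 ± 4.33 against 279 ± 5.88 TPM, and the share of the coding transcript EIF3G-201 fell by 8.33 points (adjusted p = 0.00777). EIF3I, a WD-repeat subunit whose canonical coding transcript is not used here, went from 1.56%, 1.29% and 1.11% to 4.54%, 4.84% and 4.68% (adjusted p = 0.000731). EIF3E, part of the eIF3 core, went from 0.224% ± 0.0393 to 1.84% ± 0.156 (adjusted p = 0.000674), 7.97 times more NMD-biotype TPM. The 3 subunits share a separation of the groups that is wide against the spread between libraries. EIF3H rose from 1.01% ± 0.167 to 2.796% ± 0.819 (adjusted p = 0.0409), and missed the threshold in each of the 6 fits with 1 library left out (adjusted p of 0.0612 to 0.109).

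In the elongation factors the NMD-biotype classes were small but well separated. EEF1B2, the nucleotide exchange factor for eEF1A, went from 0.276%, 0.390% and 0.321% to 1.57%, 1.49% and 1.48% (adjusted p = 0.00131), with EEF1B2-205 at 1.01 to 2.19 TPM in SCR and 7.54 to 9.09 TPM after UPF1 knockdown. EEF1D, its partner subunit, went from 0.463% ± 0.0388 to 1.59% ± 0.316 (adjusted p = 0.00793). ABCE1 went from 0.524% ± 0.324 to 2.19% ± 0.527 (adjusted p = 0.0214), which rests on 0.638 against 2.64 TPM. EIF2B4, a regulatory subunit of the eIF2 exchange factor, went from 5.86%, 5.89% and 7.15% to 11.2%, 17.7% and 13.4% (adjusted p = 0.0275), and the 3 UPF1 knockdown libraries spread widely. EIF4B went from 0.6001% ± 0.164 to 1.85% ± 0.214 (adjusted p = 0.00575), and PABPC4 from 3.57% ± 0.0977 to 6.10% ± 0.572 (adjusted p = 0.00576).

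The helicase pair differed. EIF4A1-208, which carries an added exon of 148 bases, was 0.0687 to 0.916 TPM in SCR and 2.21 to 4.48 TPM after UPF1 knockdown. EIF4A1-217, which skips an exon of 140 bases as EIF4A2-203 does, was 2.09 to 2.69 TPM in SCR and 1.204 to 2.33 TPM in the knockdown, so its groups overlapped. These transcripts are not matched otherwise. EIF4A1-217 holds 368 bases outside its canonical transcript and EIF4A2-203 holds 5, and their stops lie 1016 and 648 bases before the last junction. The class as a whole went from 0.416% ± 0.0126 to 0.763% ± 0.158 in EIF4A1 (adjusted p = 0.0366), against 33.6% to 48.1% in EIF4A2. EIF4G1 went from 0.456% ± 0.0948 to 0.902% ± 0.136 (adjusted p = 0.0287).

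Not every transcript with the NMD biotype was higher. Of the 32 such transcripts of these genes that averaged 0.5 TPM or more in SCR, 21 (65.6%) were higher in every UPF1 knockdown library than in any SCR library, against 49.8% of all 3399 NMD-biotype transcripts at that SCR level. After DHX34 knockdown 2 were higher in this sense, beside 13.4%, and 19 were higher with UPF1 than with DHX34 depleted, beside 41.9%. EIF3M-212 was 23.1 to 45.3 TPM in SCR and 33.0 to 37.1 TPM after UPF1 knockdown, EIF3J-207 12.5 to 14.9 and 13.6 to 14.3 TPM, and EIF4E-211 1.61 to 6.45 and 1.85 to 2.64 TPM. Their groups overlapped, although their stops lie 406, 593 and 225 bases before the last junction. With the level taken over all 9 libraries, 36 transcripts reached it, and over the 29 of them whose deposited length equals that of GENCODE 44 this distance ran from 58 to 4057 bases, and from 221 to 1016 bases in those that were not higher. EIF3F has to be read apart: its canonical coding transcript is not used here, 98.3% to 98.7% of its TPM in SCR sat on NMD-biotype transcripts, and its share fell by 1.87 points (adjusted p = 0.0341). EIF2B5, EIF3I and EIF3L likewise lack their canonical transcript here, so their values and shares cover the remaining transcripts only.

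DHX34 knockdown changed the NMD-biotype share of 0 of the 24 translation factor genes tested (limma), and 1 had an unadjusted p under 0.05. Over all 3724 genes 0.376% were called. Both log-ratio versions of the test also called 0. Tested directly, the UPF1 knockdown had a higher NMD-biotype share than the DHX34 knockdown in 12 of 25 genes and a lower one in 0, beside 15.7% higher and 0.559% lower among all 3935 genes and 34.6% among those with at least 100 TPM. The 12 are the 13 named above without EIF2B4 and EIF3H and with ETF1, the release factor, whose class is listed at 0 in every DHX34 knockdown library and was 0.207% ± 0.107 after UPF1 knockdown (adjusted p = 0.0144). ETF1 reached the minimum of 0.1 TPM in the class only through the UPF1 knockdown libraries, which leaves 11 calls without it. Both knockdowns share the SCR libraries as their control, which this direct comparison does not use. With a library left out, 8 of the 12 calls always passed; EIF4A1 and PABPC4 passed in 1 of 6 fits, EIF4G1 in 2 and ETF1 in 4, and the count was 8 without UPF1 replicate 3.

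Summed over each gene, the mRNAs of the translation factors made up a smaller part of the reads in every library of both knockdowns than in SCR, with no test run on this share. In bulk RNA less of an mRNA per cell and fewer cells with it cannot be told apart. They took 4.16% ± 0.0395 of the estimated counts in SCR, 3.83% ± 0.0831 after DHX34 knockdown and 3.94% ± 0.0223 after UPF1 knockdown. Per length they took 2.62% ± 0.014 of the TPM in SCR, 2.55% ± 0.0369 after DHX34 knockdown and 2.69% ± 0.0207 after UPF1 knockdown (SD, n = 3), so after UPF1 knockdown the direction depends on the scale. For all genes the scale sets the size of the shift. On TMM-scaled counts the median log2 fold change of all genes tested was 0.02 in each knockdown, and on TPM it was 0.16 for DHX34 and 0.20 for UPF1. The median translation factor gene lay 0.17 (DHX34) and 0.19 (UPF1) below the median gene on counts, and 0.15 below it in both on TPM.

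UPF1 knockdown changed 34 of the 48 genes on TMM-scaled counts, 3 up and 31 down (edgeR quasi-likelihood test, adjusted p of at most 0.005), with a median log2 fold change of −0.17. The background is 25.3% of all 17184 genes called, 12.4% up and 12.9% down, and among the 1436 genes with at least 100 TPM 67.3% called, 6.89% up and 60.4% down. All 48 members had 70.8% called. The 40 with at least 100 TPM had 72.5% called, near the share of genes at that level. The 8 below it had 62.5% called, against 18.6% up and 18.4% down among all genes from 10 to 100 TPM. EIF2B5, among the 8, lies below that range. On log2 TPM without centring, 17 of the 31 falling genes were higher than SCR and 14 lower, and the 3 rising genes were higher there too; with each library centred on its median gene, 34 fell and 1 rose.

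The 3 that rose were EIF4A2, EIF5 and DENR. EIF4A2 was 274, 281 and 278 CPM in SCR and 346, 352 and 367 CPM after UPF1 knockdown, a log2 fold change of 0.35 (SE 0.0291, adjusted p = 2.75e-06), and the DHX34 knockdown had 267, 255 and 266 CPM. EIF5, the GTPase-activating protein of eIF2, was 406, 409 and 412 CPM in SCR and 454, 464 and 458 CPM after UPF1 knockdown (0.16, adjusted p = 0.000258). DENR, which acts in re-initiation and recycling with MCTS1, was 127, 124 and 130 CPM against 139, 141 and 142 CPM (0.14, adjusted p = 0.00186). For these genes no library of one group reached into the other. With each library's TPM centred on its median gene, EIF5 (adjusted p = 0.111) and DENR (adjusted p = 0.0715) missed the threshold and EIF4A2 kept it (0.33, adjusted p = 0.000192), and DENR held in only 1 of the 6 fits with a library left out.

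In the groups by role, all of the elongation factors fell: 6 of 6 were down, with a median of −0.25, from EEF1G at −0.29 (SE 0.0265, adjusted p = 5.03e-06) to EEF2 at −0.11 (adjusted p = 0.00252). EEF1G, the structural subunit of the eEF1 complex, was 2699, 2600 and 2787 CPM in SCR and 2183, 2219 and 2251 CPM after UPF1 knockdown. EEF1A1, which delivers tRNA to the ribosome and was the most abundant member (9542 to 9630 TPM in SCR), and EEF2, the translocase, fell on counts while their TPM was higher (9743 to 9901 TPM for EEF1A1). In the eIF3 group 8 of 13 fell and 0 rose, led by EIF3M at −0.28 (edgeR adjusted p = 1.27e-05). Beside the counts of all the role groups, 12.9% of all genes and 60.4% of genes with at least 100 TPM fell. In the start-selection group 5 of 10 fell and 2 rose; MCTS1 was the lowest at −0.29, opposite to its partner DENR. Of the eIF2B subunits 3 of 5 fell, EIF2B1, EIF2B3 and EIF2B4. In the cap-binding group 5 of 9 fell, EIF4A1, EIF4E, EIF4G1, EIF4G2 and EIF4H, and EIF4A2 rose. ABCE1 was 345, 342 and 359 CPM in SCR and 282, 290 and 287 CPM after UPF1 knockdown. It fell by 0.29 on the log2 scale (edgeR adjusted p = 5.28e-06), while its mean TPM was 121 in both groups. GSPT1 fell by 0.12, and ETF1 was at −0.05 (edgeR adjusted p = 0.173). PABPC1 and PABPC4 fell by 0.17 and 0.14. On TPM without centring, the direction flipped in all the falling eIF2B genes and in both poly(A)-binding genes. It also flipped in EIF3A, EIF3D, EIF3G, EIF3I and EIF3K of the eIF3 group. In the other groups EEF1A1, EEF2, EIF1B, EIF5B, EIF4E, EIF4H and GSPT1 flipped.

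**Figure D3:**
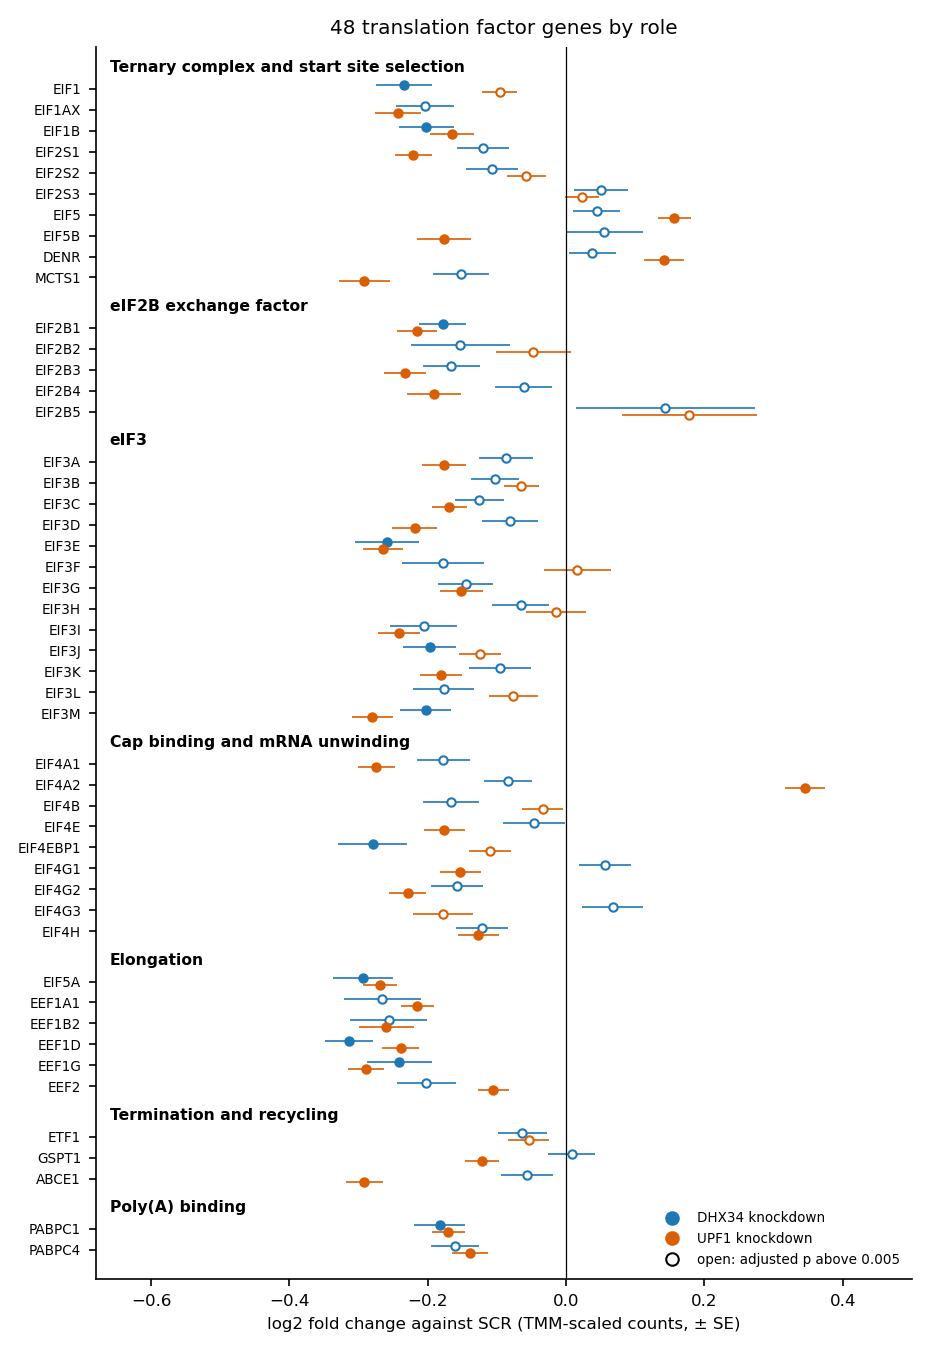
Log2 fold change against SCR (x axis, TMM-scaled counts, ± SE) of the 48 translation factor genes, grouped by role, for the DHX34 and UPF1 knockdowns; filled points passed an adjusted p of 0.005. Most points lie between −0.31 and 0, EIF4A2 stands at 0.35 after UPF1 knockdown, and 17 of the 31 UPF1 falls turn positive on uncentred TPM, as do 2 of the 11 DHX34 falls.

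DHX34 knockdown changed 11 of the 48 genes, 0 up and 11 down (edgeR, adjusted p of at most 0.005), with a median of −0.15. The background is 10.4% of 17004 genes called, 5.54% up and 4.86% down. Among the 1437 genes with at least 100 TPM 29.9% were called, 2.09% up and 27.8% down. All 48 members had 22.9% called, the 40 with at least 100 TPM 25%, again near genes at that level, and the 8 below it 12.5%. EEF1D was lowest: 392, 375 and 388 CPM in SCR and 314, 307 and 309 CPM in the knockdown (−0.31, SE 0.0346, adjusted p = 0.000121). EIF5A, which carries the hypusine residue and eases stalled elongation, was 1371, 1315 and 1378 CPM against 1131, 1134 and 1054 CPM (−0.29, adjusted p = 0.000755). The groups of both genes were clear of each other on counts and on TPM.

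The other nine were EIF4EBP1, the eIF4E-binding repressor of cap recognition (−0.28), EIF3E (−0.26), EEF1G (−0.24), EIF1, the start-codon fidelity factor (−0.23), EIF3M, EIF1B and EIF3J (each −0.20), PABPC1 (−0.18) and EIF2B1 (−0.18). PABPC1 and EIF2B1 were higher, not lower, on uncentred TPM. Of the 11 genes, 8 were also among the 34 called after UPF1 knockdown, both against the one set of SCR libraries. EIF1, EIF3J and EIF4EBP1 passed the threshold after DHX34 knockdown only. On TMM-scaled counts their UPF1 values against SCR were also below 0, at −0.10, −0.12 and −0.11 (edgeR adjusted p = 0.00885, 0.00558 and 0.0114). On uncentred TPM EIF1, EIF3J and EIF4EBP1 were instead higher in every UPF1 knockdown library than in any SCR library. Their log2 ratios of mean TPM were 0.07, 0.08 and 0.08. Between the knockdowns EIF1 was called (edgeR adjusted p = 0.00461), and EIF3J and EIF4EBP1 were not (0.0651 and 0.00616). The count changed with a library left out, which also leaves fewer replicates to test. It was 2 without SCR replicate 1, 7 without SCR replicate 2 and 2 without SCR replicate 3. It was 3 without DHX34 replicate 1 or 2, and 14 without DHX34 replicate 3, the library that stands apart. EEF1D and EIF5A were called in all 6 of these fits.

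Set against each other, the knockdowns differed in 5 of the 48 genes (edgeR), beside 17.4% of 17435 genes (9.89% higher and 7.47% lower with UPF1 depleted) and 22.3% of those with at least 100 TPM (11.9% and 10.4%). EIF4A2 (0.45, SE 0.0338, adjusted p = 3.34e-06) and EIF1 (0.16, adjusted p = 0.00461) were higher after UPF1 knockdown. EIF4G3 (−0.23, adjusted p = 0.0019), ABCE1 (−0.22, adjusted p = 0.000343) and EIF4G1 (−0.19, adjusted p = 0.00107) were lower. EIF4G1, the scaffold of the cap complex, was 838, 890 and 880 CPM in SCR, 900, 891 and 926 CPM after DHX34 knockdown and 776, 809 and 774 CPM after UPF1 knockdown, so the UPF1 libraries lay below both other groups. EIF4A2 and ABCE1 held in all 6 fits with a library left out, and the count was 13 without DHX34 replicate 3, 3 without DHX34 replicate 1 or UPF1 replicate 1 or 2, 4 without DHX34 replicate 2 and 2 without UPF1 replicate 3.

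The level of a gene went along with its change in both knockdowns. Among all tested genes under 1 TPM the median log2 fold change was 0.12 (DHX34) and 0.11 (UPF1), from 1 to 10 TPM 0.09 and 0.08, from 10 to 100 TPM −0.01 and −0.01, and at 100 TPM or more −0.15 and −0.18. The 40 translation factor genes with at least 100 TPM had medians of −0.16 and −0.17, close to those of other abundant genes. The 8 below 100 TPM had −0.01 and −0.18. Fragment length, given above, was longer than in SCR in all 3 DHX34 knockdown libraries and lay on both sides of SCR after UPF1 knockdown. The shift between scales was present in both. Their part in this pattern was not tested.

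**Figure D4:**
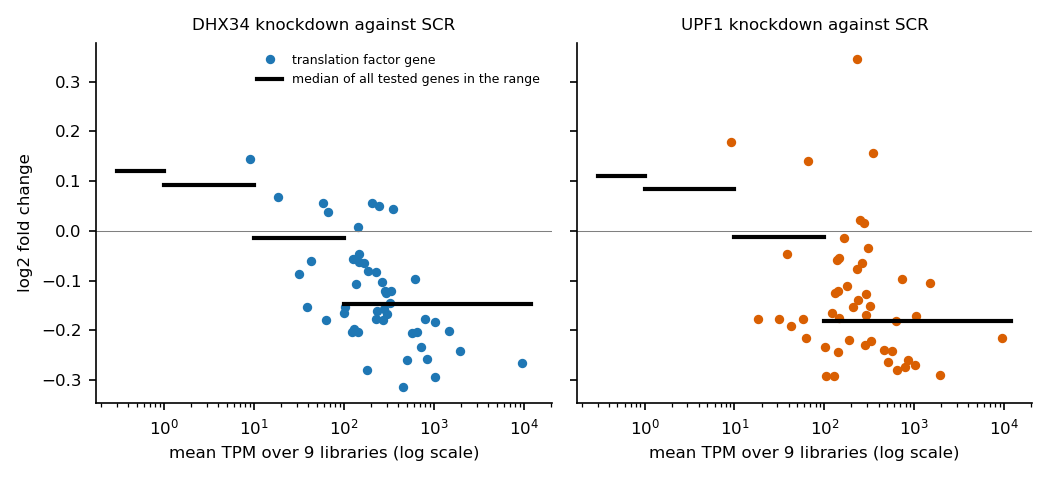
Log2 fold change on TMM-scaled counts against mean TPM over the 9 libraries (log axis) for the 48 translation factor genes, with black lines for the median of all tested genes in each range of level. The members at 100 TPM or more scatter around the black line of that range, at −0.15 (DHX34) and −0.18 (UPF1); on uncentred TPM 17 of the 31 UPF1 falls and 2 of the 11 DHX34 falls change sign.

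Many of these genes are TOP mRNAs, whose transcripts begin with a C followed by a run of pyrimidines through which mTOR signalling and LARP1 control translation. Of the 10 members listed as TOP genes, 4 fell after DHX34 knockdown and 7 after UPF1 knockdown, with medians of −0.22 and −0.19. The 38 others had 7 and 24 falls and medians of −0.12 and −0.17. Among all genes with at least 100 TPM 27.8% and 60.4% fell. The 10 listed members are all at that level, while 8 of the 38 others are below it. List and level are therefore mixed in this contrast, and their parts were not tested. LARP1 itself was at 0.06 (adjusted p = 0.346) and 0.10 (adjusted p = 0.0317). The annotated starts of 4 members show the motif, with 10 bases before the start in lower case and the run in capitals (RefSeq, GRCh38.p14).

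EEF1A1, minus strand of chromosome 6: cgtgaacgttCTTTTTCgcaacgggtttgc
EEF2, minus strand of chromosome 19: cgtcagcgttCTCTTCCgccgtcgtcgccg
EEF1B2, plus strand of chromosome 2: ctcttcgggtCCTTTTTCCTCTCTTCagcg
EIF4B, plus strand of chromosome 12: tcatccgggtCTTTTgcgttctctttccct

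These windows lie at chr6:73521013-73521042, chr19:3985444-3985473, chr2:206159885-206159914 and chr12:53006446-53006475. A C at the first base followed by at least 4 C or T on the gene's strand was found in 10 of the 52 RefSeq starts of 38 members, against 4.07% of all 35116 starts. Of these 10 starts, 5 belong to members outside the TOP list: EIF2S3, EIF3D, EIF3K, EIF3M and EIF4A2. EEF1G, on the list, lacked the motif. EEF1B2 has another annotated start, at chr2:206159599-206159628, without the motif. Only 6 genes of the TOP list had a start to examine, as EEF1D, EIF3E, EIF3H and PABPC1 had none.

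Single transcripts of these genes, of any class, were also tested for a change in share. In the DHX34 knockdown 4 of 368 member transcripts passed the test (limma, adjusted p of at most 0.05 and at least 5 percentage points), beside 0.586% of all 42520; after UPF1 knockdown 10 of 386 passed, beside 2.56% of 43834. EIF4G1-233, a retained-intron transcript, held 24.1%, 19.6% and 22.3% of EIF4G1 in SCR, 8.93%, 9.50% and 7.70% after DHX34 knockdown and 9.57%, 10.2% and 10.2% after UPF1 knockdown. It fell by 13.3 points after DHX34 knockdown (adjusted p = 0.0134) and fell by 11.99 points after UPF1 knockdown (adjusted p = 0.00619). EIF4G1-202, a coding transcript, was 30.6% to 36.2% in SCR, 43.4% to 49.2% after DHX34 knockdown (adjusted p = 0.0693) and 42.4% to 44.8% after UPF1 knockdown (adjusted p = 0.0291).

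EIF4G2, the eIF4G relative that cannot bind eIF4E, moved between coding transcripts. EIF4G2-205 held 26.0%, 28.2% and 27.1% in SCR, 7.19%, 2.92% and 5.52% after DHX34 knockdown (adjusted p = 0.0115) and 13.9%, 5.06% and 3.57% after UPF1 knockdown (adjusted p = 0.0434). EIF4G2-201 went the other way, from 49.0% to 56.8% in SCR to 73.2% to 78.2% after DHX34 knockdown (adjusted p = 0.0285), and 62.2% to 73.5% after UPF1 knockdown (adjusted p = 0.0669). Both knockdowns lay apart from SCR and overlapped each other.

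EEF1A1-207, a retained-intron transcript of 792 bases, was 81.7, 215 and 87.8 TPM in SCR, 500, 570 and 513 TPM after DHX34 knockdown and 618, 703 and 690 TPM after UPF1 knockdown. As a share of EEF1A1 it gained 5.47 points after UPF1 knockdown (adjusted p = 0.0128) and was 4.45 points higher after DHX34 knockdown, past the p threshold (adjusted p = 0.045) but under the 5 points required. The coding EEF1A1-203 fell by 5.84 points (DHX34, adjusted p = 0.016) and fell by 7.12 points (UPF1, adjusted p = 0.00595). After UPF1 knockdown 2 further coding transcripts fell: EIF4B-201 fell by 10.2 points (adjusted p = 0.0333) and EEF1B2-202 fell by 5.995 points (adjusted p = 0.0392). The direct comparison of the knockdowns called only EIF3G-201, at −7.45 points, of 386 member transcripts, beside 1.18% of 45342. The 2 comparisons with SCR share those 3 libraries. With a library left out, EIF4G1-233, EEF1A1-203 and EIF3G-201 were called in all 6 fits of the UPF1 comparison, and none of the 4 DHX34 calls was; those counted 1 without SCR replicate 1 or 3 or without DHX34 replicate 2 or 3, and the UPF1 count was 4 without SCR replicate 1 or 3 or UPF1 replicate 2, 5 without UPF1 replicate 3 and 6 without UPF1 replicate 1.

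**Figure D5:**
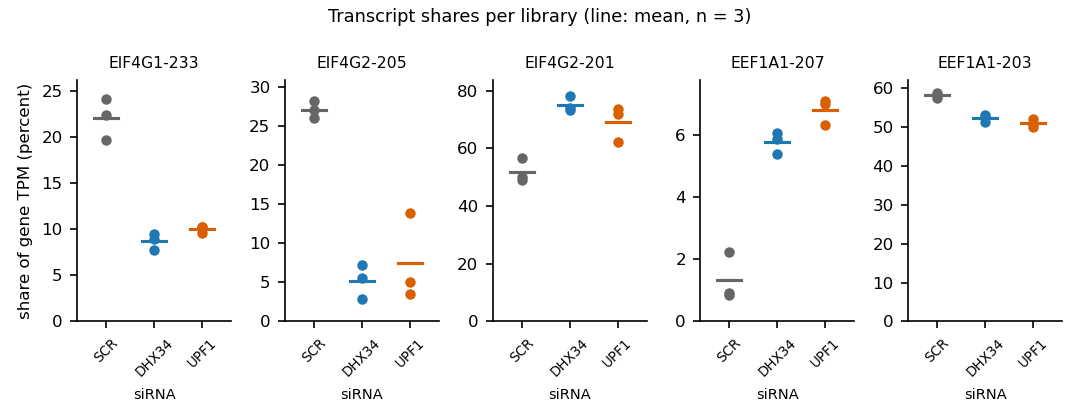
Share of the gene's TPM (percent) held by 5 transcripts of EIF4G1, EIF4G2 and EEF1A1 in each library; points are libraries and lines means of 3. EIF4G1-233 and EIF4G2-205 are lower and EEF1A1-207 higher in both knockdowns than in the SCR libraries they share as control.

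Paralogues were measured at unlike levels per length. EIF4A1 was 784 to 802 TPM and EIF4A2 186 to 201 TPM in SCR, and after UPF1 knockdown they went in opposite directions on counts (−0.27 and 0.35). EIF1 was 727 to 732 TPM and EIF1B 122 to 123 TPM. PABPC1 was 965 to 1043 TPM and PABPC4 220 to 235 TPM in SCR. After UPF1 knockdown both fell on counts (−0.17 and −0.14), while their mean TPM was higher (log2 ratios 0.10 and 0.13). EIF4G1 was 206 to 218 TPM and EIF4G3, the lowest complete member, 16.0 to 18.2 TPM; both were lower with UPF1 depleted than with DHX34 depleted. EIF2B5 was listed at 6.02 to 7.97 TPM on its remaining transcripts. EIF3C shares near-identical sequence with EIF3CL (2.41 TPM in SCR against 302 TPM for EIF3C), and EEF1A1, EIF5A and PABPC1 have close copies elsewhere, so the split of their reads is uncertain.

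Of 36 further translation genes outside the list, 8 were called after DHX34 knockdown (3 up, 5 down), 22.2% beside the 10.4% of all genes, and 11 after UPF1 knockdown (3 up, 8 down), 30.6% beside 25.3%. EIF2A, an alternative initiator tRNA carrier, fell in both (−0.41, adjusted p = 5.36e-05, and −0.32, adjusted p = 5.3e-06). TRMT112, the partner of the methyltransferase that modifies eRF1, fell in both (−0.33 and −0.47), as did EIF4E2 (−0.27 and −0.27) and PAIP1 (−0.23 and −0.30). GCN1, which senses collided ribosomes, rose in both (0.33 and 0.16). HBS1L, the rescue GTPase, rose after UPF1 knockdown (0.16, adjusted p = 0.000748), while its partner PELO fell (−0.25, adjusted p = 0.00103). EIF2AK3, the eIF2 kinase of the endoplasmic reticulum, rose after UPF1 knockdown (0.52, adjusted p = 0.00121), as measured at 1.95 TPM in SCR. EIF4EBP2 (0.30) and EEF2K (0.20) rose and MKNK2 (−0.30) fell after DHX34 knockdown, and EIF5A2 (−0.35), EEF1E1 (−0.17) and PDCD4 (−0.22) fell after UPF1 knockdown. On uncentred TPM EEF1E1 was instead higher in every UPF1 knockdown library than in any SCR library.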

How the data were processed

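Transcript abundances were taken from 9 deposited salmon tables, 1 for each library, which the labels describe as poly(A)-enriched. According to the study's methods, salmon quantified the reads with GC-bias correction against Ensembl GRCh38 release 93 coding and noncoding cDNA. The authors deposited estimated counts and TPM for 203027 transcripts, and whether strand was used is not given in the sources used here. Tables of the authors' own comparisons, which hold sleuth and SUPPA2 results, were not used.

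Transcripts were matched to GENCODE 44 by ID (97.91%) and summed per gene. The list of members, the role lists and the tests were chosen with earlier results of these data known. Summed estimated counts were rounded and tested with edgeR 4.0.16 (TMM, filterByExpr with a minimum count of 10, quasi-likelihood test, adjusted p of at most 0.005). Transcript shares (at least 0.5 TPM) and NMD-biotype shares (at least 0.1 TPM in the class and 1 TPM in the gene) were tested with limma 3.58.1 on the arcsine square-root scale. All p-values were Benjamini-Hochberg adjusted over all features tested. Transcript classes are those GENCODE 44 names. Named genes are the members called in a comparison by gene, transcript or NMD-biotype share, the targeted genes, the paralogue pairs, the most and least abundant members and the called genes of the wider list. The NMD-biotype transcripts that did not rise, LARP1 and EIF3CL were named, and the SCR level for counting such transcripts was set, after values were seen. The pipeline was tested on simulated data. The methods call the 3 libraries of a group biological replicates. Alternatives, DESeq2 1.42.0 among them, are given in the closing section. A marker gene and a stop window are not reported here.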

Additional observations from a re-analysis of the deposited data

How the results depend on the processing

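Counts of called genes depended on the setting most after DHX34 knockdown. There 11 genes became 25 with DESeq2, 22 without the low-count filter, 28 at an adjusted p of 0.05, 22 with all 9 libraries in 1 fit, 4 on log2 TPM (2 up, 2 down), 3 on log2 TPM centred on each library's median gene (a setting added after seeing the data), 4 on length-scaled counts, and 2 to 14 with a library left out. With the gene length trend removed 14 were called, of which 6 were among the 11. Across all genes the log2 fold change correlated with effective gene length at a Spearman rho of 0.236 (DHX34), 0.153 (UPF1) and −0.032 (between the knockdowns), a description over genes, which are not independent. In the UPF1 knockdown 34 became 8 on log2 TPM, all up, and 23 to 31 with a library left out; the other settings stayed within 1.5 times. Between the knockdowns 5 became 12 with DESeq2, 8 without the filter, 18 at an adjusted p of 0.05, 8 with all 9 libraries, 3 on centred log2 TPM, 2 on length-scaled counts, and 2 to 13 with a library left out. Uncentred log2 TPM reversed PABPC1 (0.0553) and EIF2B1 (0.0697) after DHX34 knockdown, and after UPF1 knockdown PABPC1 (0.104), EIF2B3 (0.00681), EIF3I (0.00977), PABPC4 (0.127), EIF3D (0.0574), GSPT1 (0.0311), EIF4H (0.0831), EIF3A (0.0384), EIF2B1 (0.0939), EIF1B (0.0461), EIF2B4 (0.0403), EIF3G (0.135), EIF4E (0.0360), EEF1A1 (0.0358), EIF5B (0.0291), EEF2 (0.111) and EIF3K (0.0649). By construction that scale is not centred on the median gene.

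Transcript shares after DHX34 knockdown went from 4 to 9 at a minimum of 5 TPM, 8 without a minimum difference, 9 with all 9 libraries, 11 with diffSpliceDGE and 1 to 5 with a library left out. In the UPF1 knockdown 10 became 34 without a minimum difference, 19 with diffSpliceDGE and 4 to 8 with a library left out. Between the knockdowns 1 became 3 at 5 TPM, 14 without a minimum difference, 3 with all 9 libraries, 9 with diffSpliceDGE and 0 to 3 with a library left out. The diffSpliceDGE calls shared 1 of the 4 (DHX34), 5 of the 10 (UPF1) and 0 of the 1 with those reported. NMD-biotype calls went from 14 to 9 to 11 (UPF1) and from 12 to 8 to 11 (between the knockdowns) with a library left out, and stayed within 1.5 times under the log-ratio tests, the higher minimum and the fit of all libraries. The cause of these shifts was not tested.

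Replicate numbers are shared by the labels, but did not pair the libraries: deviations of same-numbered libraries correlated at −0.31 to −0.01 (SCR and DHX34), 0.01 to 0.17 (SCR and UPF1) and −0.10 to 0.04 (DHX34 and UPF1). With a replicate block the genes called were 2, 35 and 2 in the DHX34, UPF1 and direct comparisons, the transcript shares 0, 2 and 0, and the NMD-biotype shares 0, 8 and 7. Depth limits small classes: NMD-biotype sums under 1 TPM, as in ABCE1 and EIF4G1 in SCR, rest on few fragments.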
